A study of Mus musculus with 12 samples.

Results

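A set of 7 genes of meiotic entry and meiotic prophase were described in sorted mouse spermatogonia: Stra8, Meioc, Ythdc2, Mybl1, Ccna1, Hspa2 and Spdya. They were chosen by name, with each symbol matched to the gene identifiers of the count table, and all 7 were found among its 53715 genes. All 7 also passed the filter on low counts, which left 19815 genes for testing. The libraries form 4 groups of 3: Tet1KO at 11 months, WT at 11 months, Tet1KO at 3 months and WT at 3 months. All mice were of the C57BL6/129 strain, the cells are labelled as spermatogonia of the testis, and each library was made from 1000 sorted cells with Smart-seq2, which amplifies whole transcripts from few cells. Tet1 encodes a dioxygenase that oxidises 5-methylcytosine in DNA. The labels give neither the Tet1 allele nor the tissue it is lost from nor the sorting markers. Whether the 3 libraries of a group are from different mice is not labelled, so each p-value reflects the spread among these libraries, part or all of which may be technical.

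Spermatogonia divide by mitosis until retinoic acid commits them to meiosis. STRA8, a transcription factor induced by retinoic acid, acts with its partner MEIOSIN to switch on meiotic genes, while the RNA-binding partners MEIOC and YTHDC2 help end the mitotic programme. Later in prophase A-MYB, the product of Mybl1, drives pachytene transcription, Speedy A, the product of Spdya, activates CDK2 at telomeres and helps tie them to the nuclear envelope, and cyclin A1 and the chaperone HSPA2 are needed for the exit from prophase into the meiotic divisions. Stra8 is also transcribed in differentiating spermatogonia, whereas Ccna1 and Hspa2 are best known from spermatocytes.

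In these cells Stra8 and Meioc were the most abundant of the set and Ccna1 and Mybl1 the scarcest, and no gene of the set passed the test between Tet1KO and WT or between ages after correction over all genes tested. Stra8 was the most abundant of the set in every library, at 305 to 1214 TPM (counts per kilobase of exon, scaled to the same sum in every library). Ccna1 varied most, by 49.8-fold between the highest and the lowest library. Its highest values, and those of Hspa2 and Spdya, were found in 1 Tet1KO and 1 WT library of 3 months. By the marker lists, these libraries also carried the most pachytene spermatocyte and peritubular myoid transcripts.

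Total counts were 8325159 to 18223645 per library. The germ cell markers Sycp3 and Dazl averaged 1678 and 1302 TPM, and the 16 markers of leptotene and zygotene spermatocytes summed to 2966 to 6235 TPM, so the sorted cells carried transcripts of early meiosis as well as of spermatogonia. The 16 markers of undifferentiated spermatogonia summed to 139 to 461 TPM and none was at 0 in any library. Somatic markers were present too: those of Sertoli cells summed to 128 to 690 TPM and those of leukocytes to 97.9 to 1368 TPM. Of the Sertoli cell markers, Ctsl alone averaged 103.2 TPM and had at least 82.4 TPM in every library. The lowest Sertoli cell sums were therefore mostly Ctsl, and every Sertoli cell sum given below includes it. Tet1 itself gave counts of 1, 17 and 5 in Tet1KO and 1, 16 and 5 in WT at 11 months, and of 6, 11 and 18 in Tet1KO and 15, 16 and 0 in WT at 3 months. These low counts overlapped between the genotypes at both ages and do not check the labels, so the groups below are named as the labels name them. On the first principal component of log2 CPM, with 39% of the variance, Tet1KO replicate 2 (score 121) and WT replicate 1 (score 131) of 3 months stood apart from the other 10 libraries (-55.9 to 38.9).

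Promoter windows of RefSeq in build GRCm38.p6, from 250 bases before a gene's RefSeq start to 50 after it, were found for 5 of the 7 genes: Stra8, Meioc, Ccna1, Hspa2 and Spdya. The RefSeq start coincides with the start in the deposited annotation for Spdya, and for the other 4 it lies inside the gene as the deposited table bounds it. The windows of Stra8, Meioc and Ccna1 lie wholly inside those bounds, so a start used further upstream is not covered by them. The 3 windows below are shown because Stra8 was the most abundant member, because Spdya and Mybl1 varied together over the libraries, and because Hspa2 was the member whose genotypes did not overlap at 11 months. Capitals mark the retinoic acid receptor half-site AGGTCA in Stra8 and, in Hspa2 and Spdya, the MYB words CAACGG or CAACTG or TAACGG or TAACTG, all searched on both strands. The windows are chr6:34920698-34920997 on the plus strand for Stra8, chr12:76404120-76404419 on the plus strand for Hspa2, and chr17:71551811-71552110 on the plus strand for Spdya.
Stra8: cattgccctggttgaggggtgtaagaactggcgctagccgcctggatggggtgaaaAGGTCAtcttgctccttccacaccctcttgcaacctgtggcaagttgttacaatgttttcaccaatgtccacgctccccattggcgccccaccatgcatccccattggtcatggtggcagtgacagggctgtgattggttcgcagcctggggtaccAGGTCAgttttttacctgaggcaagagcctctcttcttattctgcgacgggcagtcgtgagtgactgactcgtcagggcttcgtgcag
Hspa2: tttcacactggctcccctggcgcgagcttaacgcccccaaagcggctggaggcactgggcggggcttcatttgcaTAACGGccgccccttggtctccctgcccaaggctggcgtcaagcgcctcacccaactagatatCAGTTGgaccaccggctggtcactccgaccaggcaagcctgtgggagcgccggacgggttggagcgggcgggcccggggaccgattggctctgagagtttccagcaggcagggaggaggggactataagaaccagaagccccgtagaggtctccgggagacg
Spdya: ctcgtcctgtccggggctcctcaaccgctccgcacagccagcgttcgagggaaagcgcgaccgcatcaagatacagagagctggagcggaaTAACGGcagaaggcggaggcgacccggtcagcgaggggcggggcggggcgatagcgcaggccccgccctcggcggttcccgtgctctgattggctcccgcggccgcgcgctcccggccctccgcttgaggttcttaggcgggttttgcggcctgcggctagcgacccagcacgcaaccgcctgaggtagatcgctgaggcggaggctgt

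The Stra8 window held 2 copies of AGGTCA, at positions -194 and -38 counted from the RefSeq start as position 0. At least 1 copy is present in 16.3% of the 32841 windows of this length. No pair of AGGTCA spaced by 2 or by 5 bases was found in the Stra8 window. The Spdya window held TAACGG at position -159, and the Hspa2 window held TAACGG at -175 and CAGTTG, the reverse complement of CAACTG, at -112. The Meioc window (chr11:102665335-102665634, plus strand) held TAACTG at -176 and TAACGG at -7, and the Ccna1 window (chr3:55055006-55055305, minus strand) held none of the 4 MYB words, at least 1 of which occurs in 28.3% of all windows. The letters CNCCTCAG, a motif reported for STRA8 binding, occurred once in the Spdya window and in none of the other 4, against 7.94% of all windows. The windows differed in CpG dinucleotides, the usual sites of DNA methylation: Stra8 had 10, Hspa2 21, Meioc 28, Ccna1 35 and Spdya 38, and the median over all windows was 7. A match of letters is a description of the window and not a binding site.

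In order of level per length, averaged over all 12 libraries, Stra8 had 723 TPM, Meioc 180 TPM, Spdya 87.1 TPM, Hspa2 35.1 TPM, Ythdc2 28.8 TPM, Ccna1 9.10 TPM and Mybl1 4.12 TPM. Stra8 lay above 99.0% of the genes tested and Mybl1 above 41.0%. Stra8 was above Meioc in 12 of 12 libraries, Meioc above Spdya in 11, Spdya above Hspa2 in 12 and Ythdc2 above Ccna1 in 11. The remaining neighbours did not separate: Hspa2 was above Ythdc2 in 4 of 12 libraries, and Ccna1 above Mybl1 in 5. In both pairs the mean followed the few high libraries of Hspa2 and Ccna1.

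**Figure D1:**
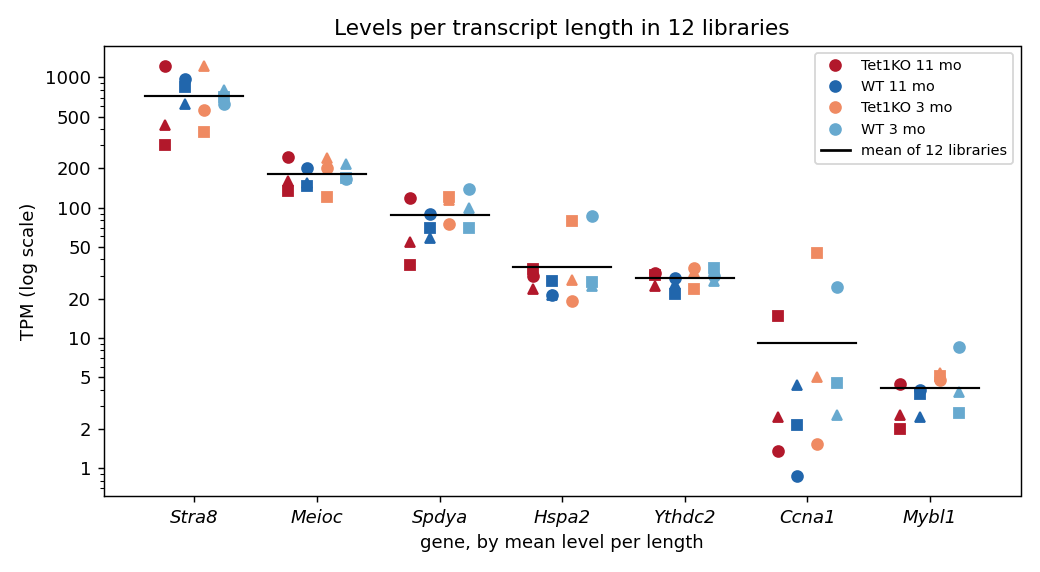
Level per exon length (TPM, log scale) of the 7 genes in each of the 12 libraries, ordered by the mean (black line), with colours for the 4 groups and circles, squares and triangles for replicates 1, 2 and 3. Stra8 lies above the other genes at 305 to 1214 TPM, and Ccna1 spans 0.873 to 45.0 TPM.

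Stra8 (ENSMUSG00000029848.11, chr6:34920163-34939344, plus strand, mm10) is the retinoic acid-induced switch of meiotic entry. Its levels were 1137, 240.4 and 488 CPM in Tet1KO at 11 months and 968, 700.5 and 645 CPM in WT at 11 months (CPM being counts scaled to a common library size by TMM, in the order replicate 1, 2 and 3). At 3 months they were 524, 366 and 1126 CPM in Tet1KO and 646, 647 and 910 CPM in WT. The Tet1KO libraries held both the highest and the lowest value at each age, so that the groups overlapped. The highest library exceeded the lowest by 4.73-fold over the whole series, and by 3.08-fold within Tet1KO and 1.41-fold within WT at 3 months.

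Meioc (ENSMUSG00000051455.13, chr11:102663716-102682237, plus strand) encodes the partner of YTHDC2 that helps maintain meiotic prophase. It was at 590, 272 and 462 CPM in Tet1KO and 515, 314 and 414 CPM in WT at 11 months. At 3 months it was at 484, 295 and 567 CPM in Tet1KO and 444, 397 and 620.5 CPM in WT. Replicate 2 was the lowest library in all 4 groups, and the groups overlapped. The ratio of Stra8 to Meioc in TPM stayed between 2.26 and 5.72, with a median of 3.87.

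Ythdc2 (ENSMUSG00000034653.11, chr18:44827746-44889724, plus strand) encodes an RNA helicase with a YTH domain. It was at 146, 118 and 139 CPM in Tet1KO and 141, 89.4 and 132 CPM in WT at 11 months. At 3 months it was at 157, 112 and 147 CPM in Tet1KO and 154, 157 and 153 CPM in WT. It was the steadiest gene of the set, with a within-group SD of 0.23 on the log2 scale against a median of 0.44 over all genes tested. The Meioc to Ythdc2 ratio in TPM was 4.44 to 7.82, with a median of 6.21.

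Mybl1 (ENSMUSG00000025912.16, chr1:9667415-9700209, minus strand) rested on the lowest counts beside Ccna1, 47 to 352 per library. It was at 12.4, 4.72 and 8.61 CPM in Tet1KO and 11.9, 9.28 and 7.67 CPM in WT at 11 months. At 3 months it was at 13.3, 14.7 and 15 CPM in Tet1KO and 26.6, 7.28 and 13.01 CPM in WT. The Tet1KO values of 11 months all lay below those of 3 months, whereas the WT values of the 2 ages overlapped. Spread within groups had an SD of 0.60 on the log2 scale.

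Spdya (ENSMUSG00000052525.14, chr17:71552061-71589533, plus strand) followed Mybl1 from library to library at a median of 21.9 times its TPM. It was at 135, 34.6 and 74.4 CPM in Tet1KO and 109, 71.0 and 73.8 CPM in WT at 11 months. At 3 months it was at 85.5, 141 and 129 CPM in Tet1KO and 177, 78.5 and 137 CPM in WT. The groups overlapped in every comparison. Spdya exons overlap those of the pseudogene Mettl4-ps1 on the same strand (4.42 to 20.1 CPM) and of Trmt61b on the opposite strand (22.2 to 85.8 CPM), and counting used no strand, so its level is uncertain. Its ratio to Cdk2, its kinase partner, was 1.6 to 8.73 in TPM.

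Ccna1 (ENSMUSG00000027793.6, chr3:55045469-55055501, minus strand) encodes the male germ cell cyclin A. It was at 1.29, 11.8 and 2.84 CPM in Tet1KO and 0.883, 1.81 and 4.61 CPM in WT at 11 months. At 3 months it was at 1.45, 43.9 and 4.71 CPM in Tet1KO and 26.2, 4.21 and 2.95 CPM in WT. One library of each genotype at 3 months, and Tet1KO replicate 2 at 11 months, stood above all others, and the groups overlapped. The counts behind these values ran from 14 to 815. The opposite-strand gene 4931419H13Rik shares exon sequence with Ccna1 and had 0.0835 to 5.34 CPM. The somatic paralogue Ccna2, the cyclin A of mitotic cells, was far more abundant, the Ccna1 to Ccna2 ratio in TPM being 0.00734 to 0.378 with a median of 0.0269.

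Hspa2 (ENSMUSG00000059970.7, chr12:76404176-76406938, plus strand) encodes the testis-enriched HSP70 chaperone that assembles the CDK1 and cyclin B complex. It was at 40.7, 39.1 and 38.8 CPM in Tet1KO and 30.9, 33.2 and 32.4 CPM in WT at 11 months. At 3 months it was at 26.2, 111 and 37.6 CPM in Tet1KO and 132, 36.5 and 41.6 CPM in WT. At 11 months every Tet1KO library was above every WT library, while at 3 months the genotypes overlapped. Without the 2 libraries apart on the first component, the highest of the other 10 exceeded the lowest by 1.59-fold, against 5.03-fold over all 12. The constitutive paralogue Hspa8 was more abundant in every library, the Hspa2 to Hspa8 ratio in TPM being 0.0538 to 0.409.

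**Figure D2:**
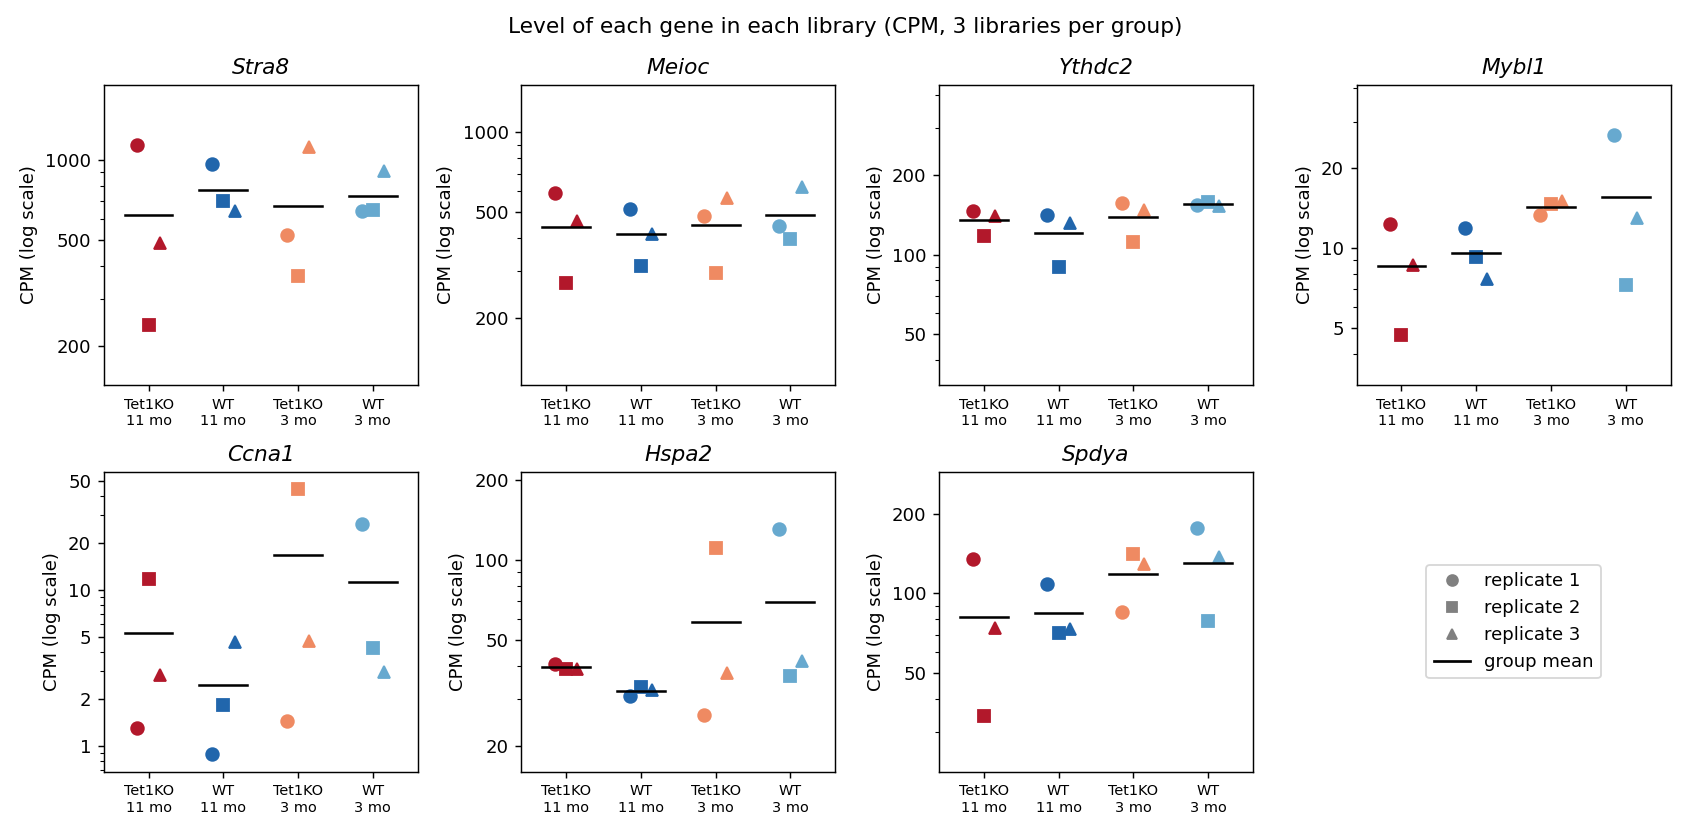
Level of each gene (CPM, log scale) in each library of the 4 groups, with circles, squares and triangles for replicates 1, 2 and 3 and black lines for the group means. At 11 months the genotypes overlap for every gene but Hspa2, which lies at 38.8 to 40.7 CPM in Tet1KO and 30.9 to 33.2 CPM in WT.

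The comparison of Tet1KO with WT asks whether loss of the dioxygenase goes with a change in these genes. At 11 months, 0 of the 7 genes passed edgeR's quasi-likelihood test with Benjamini-Hochberg adjustment (adjusted p of 1.0 for each), against 0% of all genes tested. None of the 7 had an unadjusted p under 0.05, which 1.65% of all genes did. DESeq2 and limma-voom also called 0 of the 7. The fitted log2 fold changes (± SE) were -0.31 ± 0.52 for Stra8, 0.09 ± 0.32 for Meioc and 0.16 ± 0.18 for Ythdc2. They were -0.16 ± 0.44 for Mybl1, -0.06 ± 0.44 for Spdya, 1.14 ± 1.33 for Ccna1 and 0.30 ± 0.56 for Hspa2. The median was 0.09, and 0.02 over all genes tested.

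The precision of these values differed widely between the genes. For Ythdc2 the 95% interval of the log2 fold change at 11 months was -0.25 to 0.56, whereas for Ccna1 it was -1.82 to 4.09. Leaving out Tet1KO replicate 2 of 11 months, the lowest library for Stra8, Meioc, Mybl1 and Spdya, turned the log2 fold change of Stra8 to 0.07, of Mybl1 to 0.13, of Spdya to 0.31 and of Ccna1 to -0.21. Hspa2 was the only member whose groups did not overlap at 11 months. It averaged 39.5 ± 1.04 CPM in Tet1KO and 32.2 ± 1.19 CPM in WT (SD, n = 3 each), and 2.82% of all genes tested had all 3 Tet1KO libraries above all 3 WT libraries (5.36% in either direction). Between libraries of the same number, the log2 difference of Hspa2 (Tet1KO minus WT) at 11 months was 0.40, 0.23 and 0.26, while that of Stra8 was 0.23, -1.54 and -0.40. As Hspa2 was higher in every Tet1KO than in every WT library at 11 months, its differences are positive under any pairing. The model, whose spread for Hspa2 is estimated over all 4 groups, gave an unadjusted p of 0.609 (edgeR). Without the 2 libraries that stood apart, the Hspa2 log2 fold change was again 0.30, with an unadjusted p of 0.101 in edgeR. Both are libraries of 3 months with the highest Hspa2 values of the series. Leaving them out narrows the shared spread and is no check of the value at 11 months. Pachytene markers summed to 692, 968.5 and 465 TPM in Tet1KO and 551, 577 and 443 TPM in WT at 11 months. Spermatid markers had a higher fitted value in Tet1KO than in WT for 15 of 15 genes (median log2 fold change 0.26; sums of 1099 to 7794 TPM in Tet1KO and 863 to 8027 TPM in WT), and leukocyte markers for 14 of 14 (median 0.75; 572 to 1368 TPM in Tet1KO and 97.9 to 1060 TPM in WT). Peritubular myoid markers had a lower fitted value in Tet1KO for 6 of 7 (median -1.97; 26.2 to 95.8 TPM in Tet1KO and 73.2 to 284 TPM in WT), and Sertoli cell markers for 14 of 16 (median -0.99 on the log2 scale; 132 to 202 TPM in Tet1KO and 128 to 395 TPM in WT). Higher values in Tet1KO were found for 53.8% of all genes. No marker of these lists passed the edgeR test. An unadjusted p under 0.05 in edgeR was found for 5 of the 7 peritubular myoid and 2 of the 14 leukocyte markers, against 1.65% of all genes. None of the pachytene, spermatid and Sertoli cell markers had one. The part of these cells in the Hspa2 values was not tested, and in bulk libraries fewer cells of a type and less RNA per cell cannot be told apart.

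At 3 months, 0 of the 7 genes passed edgeR's quasi-likelihood test with Benjamini-Hochberg adjustment (adjusted p of 1.0 for each), against 0% of all genes tested. None had an unadjusted p under 0.05, against 1.14% of all genes, and DESeq2 and limma-voom called 0 of the 7. No member had groups that did not overlap, which 6.94% of all genes did. The log2 fold changes were -0.13 ± 0.52 for Stra8, -0.12 ± 0.32 for Meioc, -0.16 ± 0.18 for Ythdc2 and -0.13 ± 0.44 for Mybl1. They were -0.14 ± 0.44 for Spdya, 0.58 ± 1.27 for Ccna1 and -0.26 ± 0.56 for Hspa2. The median was -0.13, against -0.02 over all genes tested.

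The 2 libraries that stood apart, 1 of each genotype, bore on the sign of several genes. Without Tet1KO replicate 2 the log2 fold change of Ccna1 at 3 months was -1.86, and without WT replicate 1 that of Hspa2 was 0.59, that of Mybl1 0.50 and that of Spdya 0.14. With both left out, Ccna1 was at -0.22, Hspa2 at -0.29 and Mybl1 at 0.48, and the Ythdc2 value was -0.03. Sertoli cell markers summed to 158 to 239 TPM in Tet1KO and 290 to 690 TPM in WT at this age (18 markers). All 16 that were tested had a lower fitted value in Tet1KO (median log2 fold change -1.64), and 0 of them passed the edgeR test (5 had an unadjusted p under 0.05). Their part in the values of the 7 genes was not tested.

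Averaged over the ages, 0 of the 7 genes passed the same edgeR test, against 0% of all genes, and none had an unadjusted p under 0.05, against 1.43%. DESeq2 and limma-voom again called 0 of the 7. The log2 fold change was -0.002 ± 0.13 for Ythdc2 with a 95% interval of -0.28 to 0.28, and -0.01 ± 0.23 for Meioc with an interval of -0.51 to 0.48. For Stra8 it was -0.22 ± 0.37 and for Ccna1 0.86 ± 0.92. The difference of the Tet1KO effect between the ages was tested as an interaction in edgeR, and 0 of the 7 passed, against 0% of all genes. The unadjusted p was under 0.05 for none of the 7, against 1.57% of all genes, and DESeq2 and limma-voom called 0. The interaction was 0.32 ± 0.26 for Ythdc2 and 0.55 ± 0.79 for Hspa2 on the log2 scale.

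**Figure D3:**
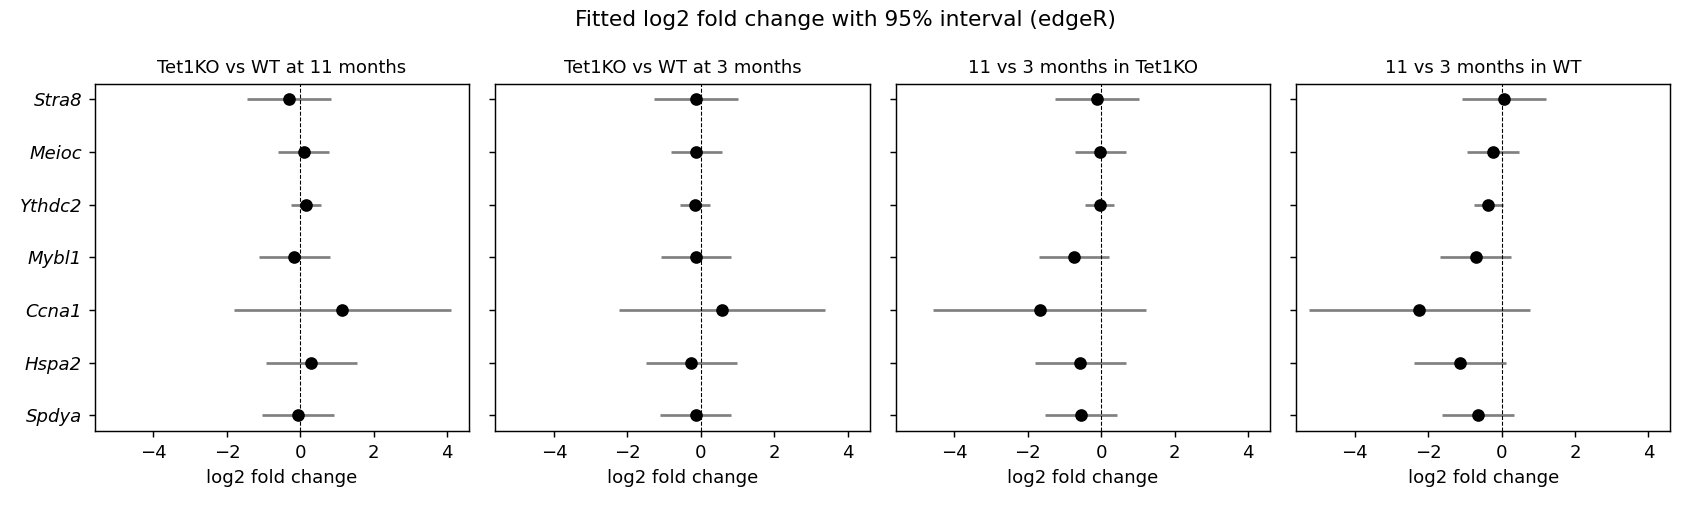
Fitted log2 fold change (points) with its 95% interval (lines) for each gene in 4 comparisons: Tet1KO over WT at 11 and at 3 months, and 11 over 3 months in Tet1KO and in WT. Every interval includes 0, and the widest is that of Ccna1 in WT, from -5.24 to 0.77.

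The comparison of the ages asks whether these genes differ between young adult and older testes. In Tet1KO, 0 of the 7 genes passed edgeR's quasi-likelihood test with Benjamini-Hochberg adjustment between 11 and 3 months (adjusted p of 1.0 for each), against 0% of all genes tested. None had an unadjusted p under 0.05, against 2.33%, and DESeq2 and limma-voom called 0 of the 7. The fitted value was below 0 for 7 of 7 genes, a sign shared by 52% of all genes, with a median of -0.54 against -0.01. Among the entry genes, Stra8 (-0.11 ± 0.52), Meioc (-0.02 ± 0.32) and Ythdc2 (-0.04 ± 0.18) lay close to 0. Among the prophase genes, Mybl1 was at -0.74 ± 0.44, Spdya at -0.54 ± 0.44, Hspa2 at -0.57 ± 0.56 and Ccna1 at -1.68 ± 1.31.

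Mybl1 was the only member without overlap in Tet1KO, at 8.57 ± 3.83 CPM at 11 months and 14.4 ± 0.892 CPM at 3 months (SD, n = 3 each). Groups that did not overlap and were lower at 11 months were found for 3.09% of all genes, and in either direction for 6.2%. The unadjusted p of Mybl1 was 0.119 in edgeR. The Ccna1 and Hspa2 values in Tet1KO rested on 1 library of 3 months: without Tet1KO replicate 2 they were 0.76 and 0.31.

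In WT, 0 of the 7 genes passed edgeR's quasi-likelihood test between 11 and 3 months, against 0% of all genes, with Benjamini-Hochberg adjusted p of 0.774 to 0.984. None had an unadjusted p under 0.05, against 5.67%, and DESeq2 and limma-voom called 0 of the 7. The fitted value was below 0 for 6 of 7, against 56.4% of all genes, with a median of -0.63 against -0.06. Stra8 was at 0.07 ± 0.52, Meioc at -0.23 ± 0.32 and Ythdc2 at -0.36 ± 0.18. Mybl1 was at -0.70 ± 0.44, Spdya at -0.63 ± 0.44, Hspa2 at -1.12 ± 0.56 and Ccna1 at -2.24 ± 1.35.

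Ythdc2 and Hspa2 were lower in every WT library of 11 months than in every WT library of 3 months, which 6.12% of all genes were. Groups without overlap in either direction made up 11.5% of all genes. Ythdc2 averaged 121 ± 27.5 CPM at 11 months and 155 ± 2.35 CPM at 3 months in WT, with an unadjusted p of 0.0766 in edgeR. Hspa2 averaged 32.2 ± 1.19 CPM at 11 months and 69.9 ± 53.5 CPM at 3 months (SD, n = 3 each), with an unadjusted p of 0.0739 in edgeR. Without the 2 libraries that stood apart, 1 of which is WT replicate 1 of 3 months, the WT log2 fold change was -0.28 for Hspa2, -0.59 for Ccna1 and -0.07 for Mybl1, while that of Ythdc2 was -0.36. Pachytene markers were lower at 11 months than at 3 months for 13 of the 13 tested in WT (median log2 fold change -1.61) and for 11 of 13 in Tet1KO (-0.64). None of them passed the test in either genotype. At 3 months their sums were 2765, 685 and 494 TPM in WT and 450, 3038 and 752 TPM in Tet1KO. At 11 months they were 551, 577 and 443 TPM in WT and 692, 968.5 and 465 TPM in Tet1KO. The high sums of 3 months were those of the 2 libraries that stood apart, 1 per genotype. In Tet1KO, leukocyte markers had a higher fitted value at 11 months for 14 of 14 (median 0.84; 572 to 1368 TPM at 11 months and 353 to 740 TPM at 3 months). Peritubular myoid markers had a lower one for 7 of 7 (median -2.56; 26.2 to 95.8 TPM at 11 months and 100.4 to 478 TPM at 3 months). In WT, spermatid markers were lower at 11 months for 15 of 15 (median -0.51), Sertoli cell markers for 13 of 16 (-0.94) and leukocyte markers for 11 of 14 (-0.31). None of these markers passed the edgeR test either. In Tet1KO an unadjusted p under 0.05 in edgeR was found for 5 of the 7 peritubular myoid and 1 of the 14 leukocyte markers, against 2.33% of all genes. In WT it was found for 1 marker each of the pachytene, spermatid, Sertoli cell and leukocyte lists, against 5.67%. The part of these cells in the values of the 7 genes was not tested.

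Ccna1 and Hspa2 had their highest values in the libraries with the most transcripts of pachytene spermatocytes, the stage in which they are best known. Pachytene markers (14 genes, of which Ldhc was the most abundant) summed to 3038 TPM in Tet1KO replicate 2 and 2765 TPM in WT replicate 1 of 3 months, and to 443 to 969 TPM in the other 10 libraries. Of the 14 markers, 1 was at 0 in some library and none in all. The same 2 libraries also had the highest peritubular myoid sums, 478 and 404 TPM, against 26.2 to 333 TPM in the other 10. WT replicate 1 of 3 months had the highest Sertoli cell (690 TPM) and spermatid (8255 TPM) sums, and Tet1KO replicate 2 the highest Leydig cell sum (33.1 TPM). Of that Leydig cell sum, Insl3 alone made 31.25 TPM, and only 1 of the 7 Leydig cell markers passed the filter. The part of these cells in the values of the members was not tested. Ccna1, Hspa2 and Spdya were highest in the 2 libraries of 3 months, and Mybl1 in WT replicate 1 (26.6 CPM). Spdya had 177 CPM in WT replicate 1 and 141 CPM in Tet1KO replicate 2, against at most 137 CPM in the other 10. Over those 10, Hspa2 spanned 26.2 to 41.6 CPM. It had 41.6 CPM in WT replicate 3 of 3 months (pachytene sum 494 TPM) and 39.1 CPM in Tet1KO replicate 2 of 11 months (969 TPM). No correlation with that sum was computed. Stra8 was not highest in the 2 libraries: WT replicate 1 was at 646 CPM, near the median of 646 CPM over the series, and Tet1KO replicate 2 was at 366 CPM. Ccna1 also reached 11.8 CPM in Tet1KO replicate 2 of 11 months, which had the highest pachytene sum of the other 10 (969 TPM), the lowest leptotene and zygotene sum (2966 TPM), and the highest undifferentiated (461 TPM) and leukocyte (1368 TPM) sums of the series. That library was the lowest of all 12 for Stra8, Meioc, Mybl1 and Spdya.

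**Figure D4:**
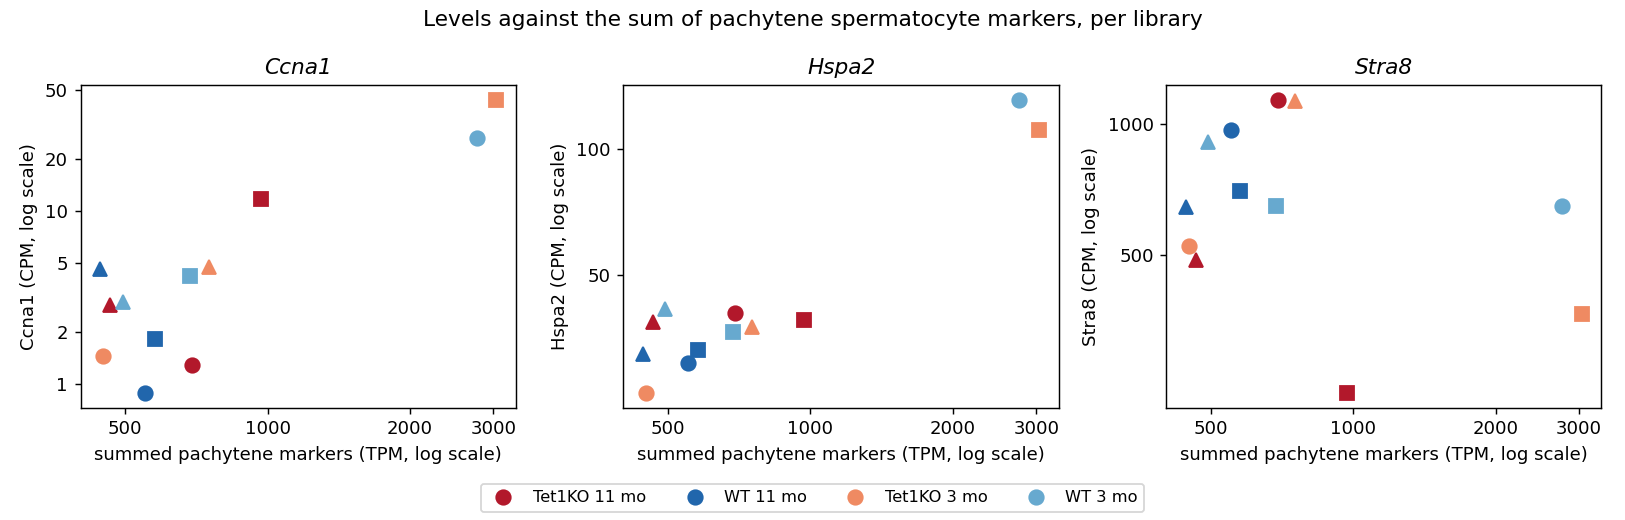
Levels of Ccna1, Hspa2 and Stra8 (CPM, log scale) against the summed level of 14 pachytene spermatocyte markers (TPM, log scale) in each library, with colours for groups and circles, squares and triangles for replicates 1, 2 and 3. The 2 libraries at 2765 and 3038 TPM hold the highest Ccna1 and Hspa2 values but not the highest Stra8 values.

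Correlations of log2 CPM over the 12 libraries describe this pattern, and the points share library, depth and cell makeup. Stra8 and Meioc had Pearson's r of 0.81 (Spearman's rho 0.73), Meioc and Ythdc2 0.74 (0.51), Mybl1 and Spdya 0.92 (0.84), and Ccna1 and Hspa2 0.85 (0.59). Over the 10 libraries other than the pair that stood apart, r was 0.78 for Stra8 and Meioc, 0.71 for Meioc and Ythdc2, and 0.91 for Mybl1 and Spdya. It was 0.42 for Ccna1 and Hspa2, so that this relation rests on those 2 libraries. The relations of Mybl1 and Spdya moved with that choice of libraries. With Ccna1, r was 0.21 over 12 libraries and -0.67 over 10 for Mybl1, and 0.13 and -0.61 for Spdya. With Hspa2 it was 0.58 and -0.18 for Mybl1, and 0.54 and 0.09 for Spdya. Both ran closer to the entry genes over the 10 libraries: with Stra8, r was 0.45 over 12 and 0.81 over 10 for Mybl1, and 0.61 and 0.94 for Spdya. Stra8 and Ccna1 ran in opposite directions, with r of -0.56 over 12 libraries and -0.59 over 10.

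**Figure D5:**
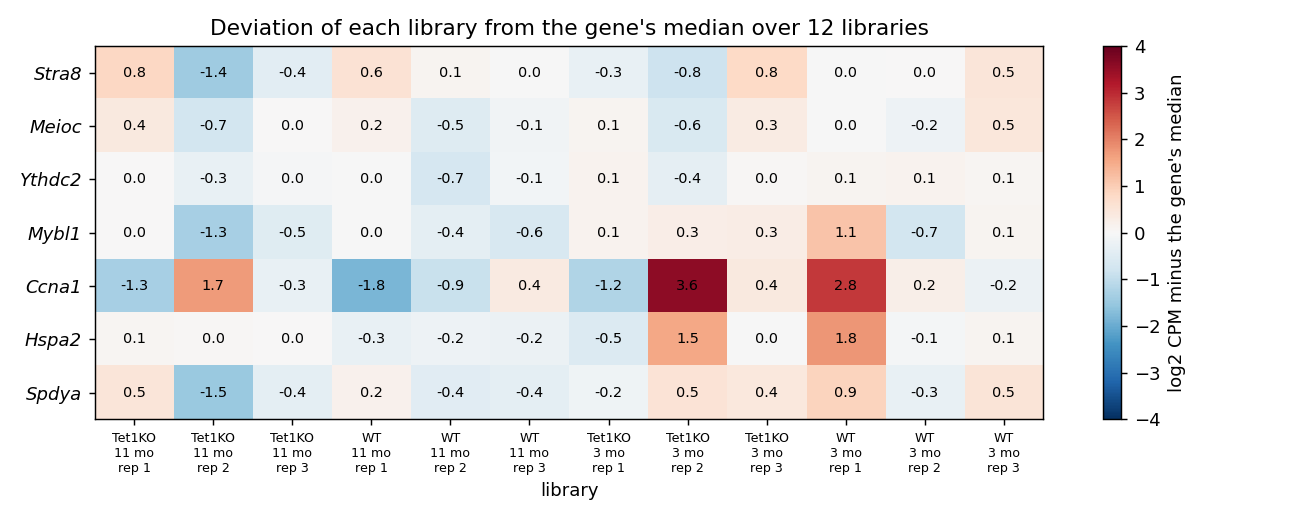
Deviation of each library's log2 CPM from the gene's median over the 12 libraries, in columns by group and replicate and with red above and blue below the median. Ccna1 and Hspa2 stand out in Tet1KO replicate 2 (43.9 and 111 CPM) and WT replicate 1 (26.2 and 132 CPM) of 3 months, and Stra8, Meioc, Mybl1 and Spdya are lowest in Tet1KO replicate 2 of 11 months.

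Among 10342 genes of at least moderate level, the 3 most like each member by Pearson's r over the 12 libraries were named. For Stra8 they were Abcg2 (0.953), an efflux transporter, Pgrmc1 (0.946), a haem-binding membrane protein, and Fzd3 (0.941), a Wnt receptor. Meioc was most like Larp4 (0.977), a La-related RNA-binding protein gene whose exons overlap 2310068J16Rik, followed by Esyt2 (0.976) and Ssr4 (0.976). Ythdc2 was most like Qk (0.953), which encodes the RNA-binding protein Quaking, then 4930528J11Rik (0.927), which overlaps Ahcyl2, and Tmeff1 (0.918). These 9 relations were nearly as high over the 10 libraries, for example 0.953 for Abcg2, 0.979 for Larp4 and 0.959 for Qk.

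Mybl1 was most like Hspa4l (0.939), a chaperone gene of the HSP110 family, then Spdya (0.915) and Nabp1 (0.909), a single-stranded DNA-binding protein gene. Spdya was most like Ptpn20 (0.961), Zup1 (0.955) and Pex13 (0.937), the last of which overlaps Pus10. Ccna1 was most like 1700025F22Rik (0.988), Gtf2a1l (0.982), the germ cell form of a TFIIA subunit, and Zswim2 (0.980), and these held at 0.974, 0.949 and 0.958 over the 10 libraries. Hspa2 was most like Bbof1 (0.978), a basal body gene that overlaps Aldh6a1, then Saysd1 (0.976) and Med9os (0.969), with r of 0.85, 0.739 and 0.81 over the 10 libraries.

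Other genes of the pathways were read from 7 lists, and 0 of their tested genes passed edgeR's test in any of the 6 comparisons. Of 12 further genes of meiotic entry, Dazl (1302 TPM), an RNA-binding protein gene that licenses germ cells for meiosis, Rbm46 (160 TPM), a partner of MEIOC and YTHDC2, and Hdac2 (90.0 TPM), a histone deacetylase gene, were the most abundant. At 11 months 9 of the 12 had a higher and 3 a lower fitted value in Tet1KO than in WT (median 0.07), and at 3 months the counts were again 9 and 3 (median 0.09). Higher values were found for 53.8% of all genes at 11 months and 46.8% at 3 months. The gatekeepers that hold back meiotic entry were led by Dmrt1 (109 TPM), Rnf2 (72.8 TPM) and Dnmt1 (28.6 TPM). Of 13 tested, 8 were higher in Tet1KO than in WT at 11 months (median 0.02) and 6 at 3 months (median -0.005).

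Of 9 further genes of prophase transcription, Taf7l (597 TPM) and Taf4b (66.1 TPM), which encode germ cell TFIID subunits, and Tcfl5 (47.9 TPM), a pachytene transcription factor gene, were the most abundant. In WT all 9 had a lower fitted value at 11 than at 3 months (median -0.15), against 56.4% of all genes. In Tet1KO 7 of 9 had (median -0.40), against 52%. Their sums overlapped between the ages, at 667 to 815 TPM at 11 months and 722 to 814 TPM at 3 months in WT. In Tet1KO they were 701 to 852 TPM and 721 to 890 TPM. The part of the 2 libraries of 3 months that stood apart in these values was not tested. The piRNA genes regulated by A-MYB, led by Mael (402 TPM), Asz1 (101 TPM) and Mov10l1 (72.9 TPM), had a median of 0.06 in Tet1KO over WT at 11 months and 0.09 at 3 months, with 9 of 13 higher at each age. Of 19 further cyclin and CDK genes, Cks1b (646 TPM), Cks2 (508 TPM) and Ccnb2 (201 TPM) were the most abundant, and 10 were higher in Tet1KO than in WT at 11 months and 12 at 3 months. The genes that attach telomeres with CDK2 were led by Ccne2 (308 TPM), Terb2 (72.2 TPM) and Majin (30.2 TPM), and 4 of 9 were higher in Tet1KO than in WT at 11 months and 6 of 9 at 3 months.

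Among 15 tested paralogues of the members, Hspa8 (317 TPM), Hspa5 (242 TPM) and Ccna2 (130 TPM) were the most abundant. YTH domain paralogues were at 55.8 TPM for Ythdf1, 39.0 TPM for Ythdf3, 26.0 TPM for Ythdf2 and 18 TPM for Ythdc1, beside 28.8 TPM for Ythdc2. Mybl2 was at 7.71 TPM, and Myb did not pass the filter. Hspa1a and Hspa1b, the stress-inducible HSP70 genes, were the 2 of the list with an unadjusted p under 0.05 between the genotypes at 11 months. Hspa1a averaged 24.0 ± 11.6 CPM in Tet1KO and 7.10 ± 2.40 CPM in WT at 11 months, and 5.19 ± 0.799 CPM in Tet1KO and 8.10 ± 4.22 CPM in WT at 3 months (SD, n = 3 each). Its log2 fold change in Tet1KO at 11 months was 1.76 ± 0.46, with an unadjusted p of 0.0025 and an adjusted p of 1.0 in edgeR, and that of Hspa1b was 1.82 ± 0.45. Hspa1a and Hspa1b are near-identical copies, so reads that fit both can be misassigned or lost at the mapping quality limit of 30. Their levels are uncertain. Hspa2, the germ cell member of the family, had 0.30 ± 0.56 in the same comparison.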

How the data were processed

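Libraries of 1000 sorted cells were made with Smart-seq2, per the labels' protocols, from 12 samples in 4 groups of 3, grouped by the genotype and age in the labels. The values the authors deposited are raw counts of fragments for 53715 genes. They came from featureCounts 1.6.2 on GENCODE vM17, per the file headers, which show unstranded counting, a mapping quality of at least 30, multi-mapping fragments included, and a fragment over several genes added to each. HISAT2, SAMtools and build mm10 are named in the submitters' processing notes, without versions of the tools. Symbols came from GENCODE vM21 for 53620 genes, and coordinates are those of the deposited table.

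The 7 genes and all lists were chosen with earlier results of these data known. Counts were tested with edgeR 4.0.16 in R 4.3.3: filterByExpr (19815 genes kept), TMM scaling, 1 mean per group over all 12 libraries, robust quasi-likelihood F tests as contrasts, two-sided, with Benjamini-Hochberg adjustment over all genes at 0.05. SE and 95% intervals were derived from the F statistic. The comparisons share libraries. TPM used the exon length in the table, and log2 CPM used a prior count of 2. Only the edgeR steps for Tet1KO against WT at 3 months were tested on simulated counts with known changes. The named genes are the 7 members in every comparison, the 3 genes most correlated with each (average log2 CPM of at least 3, no exon overlap with the member), the 3 most abundant genes of each pathway list, at most 2 of each cell type list, and any paralogue of a member. Correlations and lists are descriptions without a test.

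Totals were 8325159 to 18223645 counts. A count of 0 allows up to 3 counts, 0.165 to 0.36 CPM, a limit for counting error alone, as no molecular identifiers were used. Libraries of a group differed by a chi-square of at least 10.9 per degree of freedom, and each was counted as 1 sample. The chi-square compares libraries with counting error only, so it cannot tell repeats of the same mouse from different mice. Deviations of same-numbered Tet1KO and WT libraries from their group means correlated at 0.371, 0.167 and 0.332 at 11 months and at -0.589, -0.182 and 0.296 at 3 months. All were positive at 11 months, and at 3 months only that of replicate 3 was. Libraries of different numbers were not compared in this way, so the check cannot decide whether the numbers pair the samples at either age. The reported fit used no pairing, and the replicate block took the number within age at both ages. The alternatives were DESeq2 1.42.0, limma-voom in limma 3.58.1, other scalings and filters, a replicate block, a covariate for the prefix of the library code, and leaving out libraries.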

Additional observations from a re-analysis of the deposited data

How the results depend on the processing

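The 7 genes were called in none of the 6 comparisons under any of the 24 alternatives. Their smallest adjusted p was 0.559 and smallest unadjusted p 0.00801, both for Hspa2 between 11 and 3 months in WT with the library code prefix as a covariate in edgeR. Over all genes, DESeq2 called 3 genes for Tet1KO against WT at 11 months, 2 at 3 months, 2 averaged over the ages and 5 between the ages in Tet1KO, where edgeR and limma-voom called 0. Under the alternatives 871 log2 fold changes of the 7 genes kept their direction and 109 turned it, and no value passed the test. The cause was not tested.

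In Tet1KO against WT at 11 months, the log2 fold change that turned direction with limma-voom was -0.015 for Meioc. With 1 library left out at a time, the values ran from -1.08 to 0.074 for Stra8, -0.17 to 0.34 for Meioc, -0.021 to 0.28 for Ythdc2, -0.53 to 0.13 for Mybl1, -0.64 to 0.31 for Spdya and -0.21 to 1.94 for Ccna1. In Tet1KO against WT at 3 months, the log2 fold changes that turned direction with limma-voom were 0.060 for Stra8, 0.14 for Meioc, 0.35 for Mybl1, 0.085 for Spdya and -0.44 for Ccna1. With the replicate block the value was 0.072 for Mybl1. With the 2 libraries that stood apart left out they were 0.084 for Stra8, 0.046 for Meioc, 0.48 for Mybl1 and -0.22 for Ccna1. Leaving out each library in turn gave -0.73 to 0.17 for Stra8, -0.33 to 0.13 for Meioc, -0.46 to 0.50 for Mybl1, -0.40 to 0.14 for Spdya, -1.86 to 2.23 for Ccna1 and -1.14 to 0.59 for Hspa2. In Tet1KO against WT averaged over the ages, the log2 fold changes that turned direction with limma-voom were 0.062 for Meioc, 0.011 for Ythdc2, 0.080 for Mybl1 and -0.040 for Hspa2. With the replicate block the value was 0.002 for Ythdc2. With the 2 libraries that stood apart left out they were 0.069 for Meioc, 0.063 for Ythdc2 and 0.16 for Mybl1. With library totals as the scale the values were 0.028 for Meioc and 0.043 for Ythdc2. With no filter the value was 0.001 for Ythdc2. With the library code prefix as a covariate the value was -0.004 for Hspa2. Single libraries left out gave -0.15 to 0.12 for Meioc, -0.090 to 0.072 for Ythdc2, -0.33 to 0.17 for Mybl1, -0.39 to 0.084 for Spdya, -0.36 to 1.68 for Ccna1 and -0.42 to 0.44 for Hspa2. Between ages, 11 against 3 months in Tet1KO, the log2 fold change that turned direction with limma-voom was 0.039 for Hspa2. With the 2 libraries that stood apart left out they were 0.76 for Ccna1 and 0.31 for Hspa2. With the library code prefix as a covariate the value was 0.017 for Ythdc2. With both libraries whose code begins with DY left out they were 0.027 for Meioc and 0.053 for Ythdc2. Leaving out 1 library gave -0.88 to 0.51 for Stra8, -0.29 to 0.23 for Meioc, -0.17 to 0.063 for Ythdc2, -3.02 to 0.76 for Ccna1 and -0.90 to 0.31 for Hspa2. Between ages, 11 against 3 months in WT, the log2 fold change that turned direction with the 2 libraries that stood apart left out was -0.014 for Stra8. With the library code prefix as a covariate the value was -0.054 for Stra8. Each library left out in turn gave -0.11 to 0.29 for Stra8 and -0.41 to 0.014 for Meioc. In the interaction, the log2 fold changes that turned direction with limma-voom were -0.15 for Meioc and -0.33 for Spdya. With the replicate block the value was -0.13 for Spdya. With the 2 libraries that stood apart left out the value was -0.050 for Spdya. With both libraries whose code begins with DY left out the value was 0.21 for Mybl1. With single libraries left out the values were -0.96 to 0.42 for Stra8, -0.057 to 0.46 for Meioc, -0.67 to 0.30 for Mybl1, -0.49 to 0.44 for Spdya, -1.09 to 3.00 for Ccna1 and -0.29 to 1.43 for Hspa2. The median of the 7 genes in the interaction ran from -0.198, without WT replicate 1 of 3 months, to 0.397.

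The replicate block changed no call, and 0 genes were called with it. The number of genes with an unadjusted p under 0.05 in edgeR was 415 with the block and 326 without it at 11 months, 367 and 225 at 3 months, and 457 and 311 in the interaction. For the age comparisons no paired fit was made, since the numbers are nested in age, and a fit of only the groups compared does not apply to the averaged and interaction values. The groups hold 3 libraries each, and Ccna1 had the widest intervals of the 7 genes. The library codes put 1 Tet1KO and 1 WT library of 3 months under the prefix DY and all others under AK, and the labels do not say what a prefix stands for. All 11-month libraries carry AK.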
